A study of Mus musculus with 30 samples.

Results

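The peptides PACAP (pituitary adenylate cyclase-activating polypeptide, gene Adcyap1) and VIP (vasoactive intestinal peptide, gene Vip) and their receptors PAC1 (Adcyap1r1), VPAC1 (Vipr1) and VPAC2 (Vipr2) were examined in open chromatin of the mouse ventral hippocampus. Members were the ATAC-seq regions that overlapped the RefSeq body of any of the 5 genes (build GRCm38) or lay within 100 kb of it. They were 170 of the 257149 regions in the count table. Of these, 47 were near, meaning over the gene or within 10 kb of it, and 123 were far. The genes were chosen by, and the limit of 100 kb selected on, the measured acute change of a region 93367 bp from Adcyap1 that fell after restraint, so the acute changes of members are a description without a test. A region is named here by its distance from a member gene, and it need not act on that gene. For 107 of the 170 the nearest protein coding gene was another, where a region equally near to several genes was assigned to a single one.

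PACAP and VIP belong to the secretin and glucagon family of peptides and act on G protein-coupled receptors. PAC1 binds PACAP with high affinity, whereas VPAC1 and VPAC2 bind both peptides. All of these receptors couple mainly to stimulatory G proteins, so that adenylyl cyclase makes cyclic AMP, which acts through protein kinase A, Epac and the transcription factor CREB. PACAP is a stress peptide of the brain, and its hippocampal sources include excitatory mossy cells of the dentate gyrus. VIP in the hippocampus is made by interneurons, many of which inhibit other interneurons.

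The study asked how repeated stress alters the response of the hippocampus to a later acute stress. For 10 days mice were either gently handled or placed daily in a restraint tube, at varying times, and single housing for 24 hours followed. Tissue was then taken without a further stressor (0 min, home cage) or at 45 min from the start of an acute restraint, all in the active phase. The groups held 8 handled mice at 0 min (4 females and 4 males), 7 handled mice at 45 min (3 females and 4 males), 8 chronically restrained mice at 0 min (4 and 4) and 7 chronically restrained mice at 45 min (4 females and 3 males). Each library came from the ventral hippocampus of a separate animal. Strain, genotype and age were not given in the sources used here.

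The 30 libraries held 26104576 to 55294838 counts in regions. They came from 4 batches, each of which held all groups. A library of a handled female at 0 min, animal 45, stood apart, with 32.5% of its counts in regions at gene starts against a median of 28.4% in its group. Values are given without it where stated, and all others, marker sums and correlations among them, include it. Gene-end regions were present for 5 excitatory neuron markers, Neurod6 among them, and for 2 of 5 choroid plexus markers (Ttr, Folr1 and Clic6 had none). Regions at gene ends of the 5 markers of neighbouring brain areas summed to 24.1 to 28.9 CPM (counts scaled to library size) in single libraries. In bulk tissue, fewer cells with an open site and less opening per cell cannot be told apart.

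The sequence before the start of each gene is shown because the ligand and receptor genes differed there in composition. Each line gives the 250 bases before a RefSeq gene start on the plus strand of GRCm38.p6, 5′ to 3′. These starts can differ from the ends of the RefSeq gene bodies used for distances. The windows of Adcyap1, Adcyap1r1 and Vipr2 lie inside those bodies, which begin at 93198245, 55451501 and 116077420. Capitals mark TGACG, the core of the cyclic AMP response element bound by CREB, and the GC box GGGCGG, on either strand (CGTCA and CCGCCC where they lie on the other strand). At the end of the Vipr1 window a GC box and a TGACG share 1 base.
Adcyap1, chr17:93198767-93199016: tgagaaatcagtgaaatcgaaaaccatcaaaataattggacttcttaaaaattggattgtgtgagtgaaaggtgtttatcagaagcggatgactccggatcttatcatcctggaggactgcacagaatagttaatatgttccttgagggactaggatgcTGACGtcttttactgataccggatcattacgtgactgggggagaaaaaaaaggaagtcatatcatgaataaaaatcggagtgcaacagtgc
Vip, chr10:5638968-5639217: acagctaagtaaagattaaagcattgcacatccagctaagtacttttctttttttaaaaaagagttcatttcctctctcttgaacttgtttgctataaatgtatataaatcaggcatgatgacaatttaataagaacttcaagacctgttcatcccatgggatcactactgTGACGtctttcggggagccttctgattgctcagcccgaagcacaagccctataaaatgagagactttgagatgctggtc
Adcyap1r1, chr6:55451728-55451977: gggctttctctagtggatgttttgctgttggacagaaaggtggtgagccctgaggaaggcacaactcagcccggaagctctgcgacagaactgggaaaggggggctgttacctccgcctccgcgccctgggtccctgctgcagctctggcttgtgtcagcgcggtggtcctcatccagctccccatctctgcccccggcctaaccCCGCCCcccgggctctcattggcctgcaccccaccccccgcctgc
Vipr1, chr9:121642466-121642715: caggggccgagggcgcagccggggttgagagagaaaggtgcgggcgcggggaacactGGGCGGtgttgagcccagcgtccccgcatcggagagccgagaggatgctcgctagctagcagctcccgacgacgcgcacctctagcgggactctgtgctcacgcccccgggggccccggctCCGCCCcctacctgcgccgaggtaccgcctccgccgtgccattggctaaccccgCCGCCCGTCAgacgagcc
Vipr2, chr12:116077476-116077725: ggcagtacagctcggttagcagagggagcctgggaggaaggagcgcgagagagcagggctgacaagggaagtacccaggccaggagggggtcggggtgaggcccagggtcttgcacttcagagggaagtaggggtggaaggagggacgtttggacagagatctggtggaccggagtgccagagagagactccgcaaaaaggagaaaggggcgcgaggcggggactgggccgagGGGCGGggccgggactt

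Both ligand genes start in AT-rich sequence and all 3 receptor genes in GC-rich sequence. GC content of the window was 39.6% at Adcyap1 and 38.4% at Vip, and 65.6%, 72.8% and 65.2% at Adcyap1r1, Vipr1 and Vipr2. RefSeq gives Adcyap1 another start, at 93199168, with a GC content of 42.4%. TGACG occurred in the windows of Adcyap1, Vip and Vipr1, and in 20.19% of the 21263 windows of protein coding genes. In Adcyap1 (bases 91 to 85 before the start) and Vip (bases 79 to 73) the match went on to TGACGTC, a string searched after the sequences had been seen, which 3.358% of windows hold on either strand. The full element TGACGTCA was in none of the member windows and in 1.924% of all. GGGCGG was in the windows of the 3 receptor genes and in 42.62% of all. These matches are descriptions of letters and not of bound sites.

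No region of the table lay over the start of either ligand gene. Overlap with a region was scored over each window together with a short stretch past the start, whereas GC content and letters were read from the window alone. The windows of Adcyap1, Vip and Vipr2 overlapped no region, and those of Adcyap1r1 and Vipr1 each overlapped a region. Of all windows, 67.62% overlapped a region. The share was 16.71% among windows under 45% GC, where Adcyap1 and Vip lie, and 96.73% among windows of 65% GC or more, where the receptors lie. Vipr2, at 65.2%, lies at the lower edge of that range, and among windows of 55 to under 65% GC the share was 88.83%. Vipr2 was thus a GC-rich start with no region in the table, where most windows of like GC content had one.

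**Figure D1:**
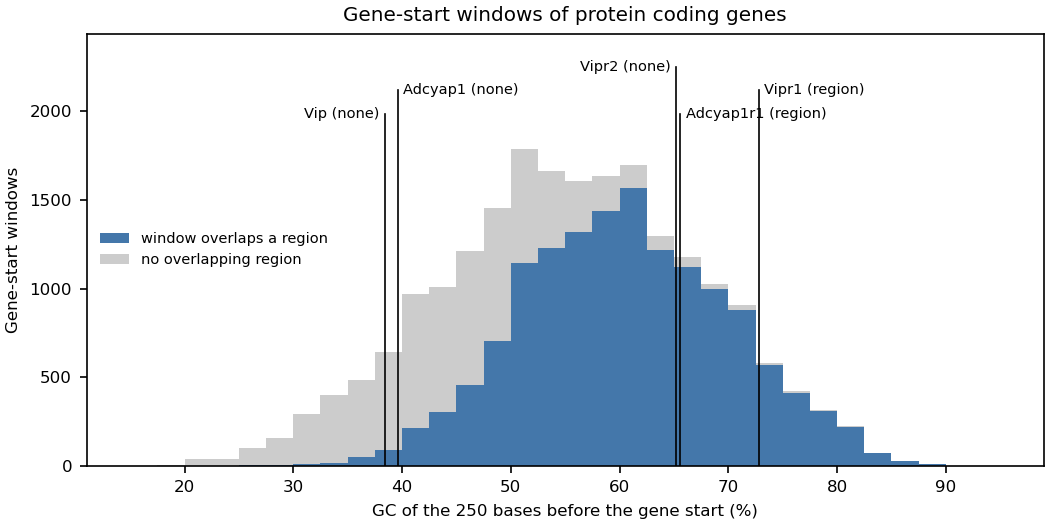
Histogram of the GC content (%) of the 250 bases before the gene start, over 21263 windows of protein coding genes. The vertical axis is the number of windows. Blue windows overlap an ATAC region and grey ones do not, where overlap was scored with a short stretch past the start included. Black lines mark the 5 genes (for Adcyap1, the start at lower coordinate): both ligand genes lie at the AT-rich side at 38.4% and 39.6%, and Vipr2 at 65.2% has no region where most windows have one.

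Around the ligand gene Adcyap1, open chromatin was sparse. The 8297-bp gene had no region over it or within 10 kb, and its 3 regions lay 21034, 57952 and 93367 bp before it, with no other protein coding gene nearer. Their levels per length were 3.60, 3.44 and 4.83 CPM per kb, against a median of 2.74 CPM per kb over all regions. Around the other ligand gene, Vip, there were 11 regions and the 8425-bp gene itself had none. The only near region lay 4506 bp before it (chr10:5634418-5634687) at 5.60 CPM per kb, more than 95.7% of all regions. It was narrow, at 270 bp against a median of 561 bp. By CPM, at 1.51, it was above 50.4% of all regions. The region of highest level in the Vip window, 13.8 CPM, lay 87932 bp before Vip over Syne1, which encodes a nuclear envelope protein. Of all protein coding genes, 75.41% had a region over the body, and of the 5069 genes 5 to 15 kb long 76.78% did.

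The receptor genes fell into both extremes. Adcyap1r1, for PAC1, had 62 regions, of which 25 were near and 14 lay over the gene and covered 95.0% of its 49955 bp. Vipr1, for VPAC1, had 87, of which 20 were near and 12 covered 86.3% of its 30239 bp. Vipr2, for VPAC2, had 7 regions, and none over its 71218 bp, while 92.97% of genes of 50 to 100 kb had at least 1. The nearest lay 6097 bp before Vipr2 (chr12:116071142-116071323) at 0.618 ± 0.209 CPM (SD, n = 30), with group medians from 0.517 in handled mice at 0 min to 0.672 in handled mice at 45 min. The region with most counts in the Vipr2 window lay 29117 bp before the gene, at a mean of 476 per library. Levels per length among the far Vipr2 regions ran from 2.39 to 10.9 CPM per kb. The level of the regions over Adcyap1r1 summed to 184 ± 8.65 CPM (SD, n = 30), or 3.72 CPM per kb of region, and over Vipr1 to 139 ± 5.84 CPM, or 4.45 CPM per kb. Most regions in the Vipr1 window were assigned to neighbours as the nearest gene: 42 to Lyzl4, 14 each to Nktr and Sec22c, and 14 to Vipr1 itself. A region over several genes, such as that at the Vipr1 start, was assigned to a single one. In the Adcyap1r1 window 44 of 62 were nearest to Adcyap1r1 and 17 to Ghrhr, the receptor gene for growth hormone-releasing hormone.

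**Figure D2:**
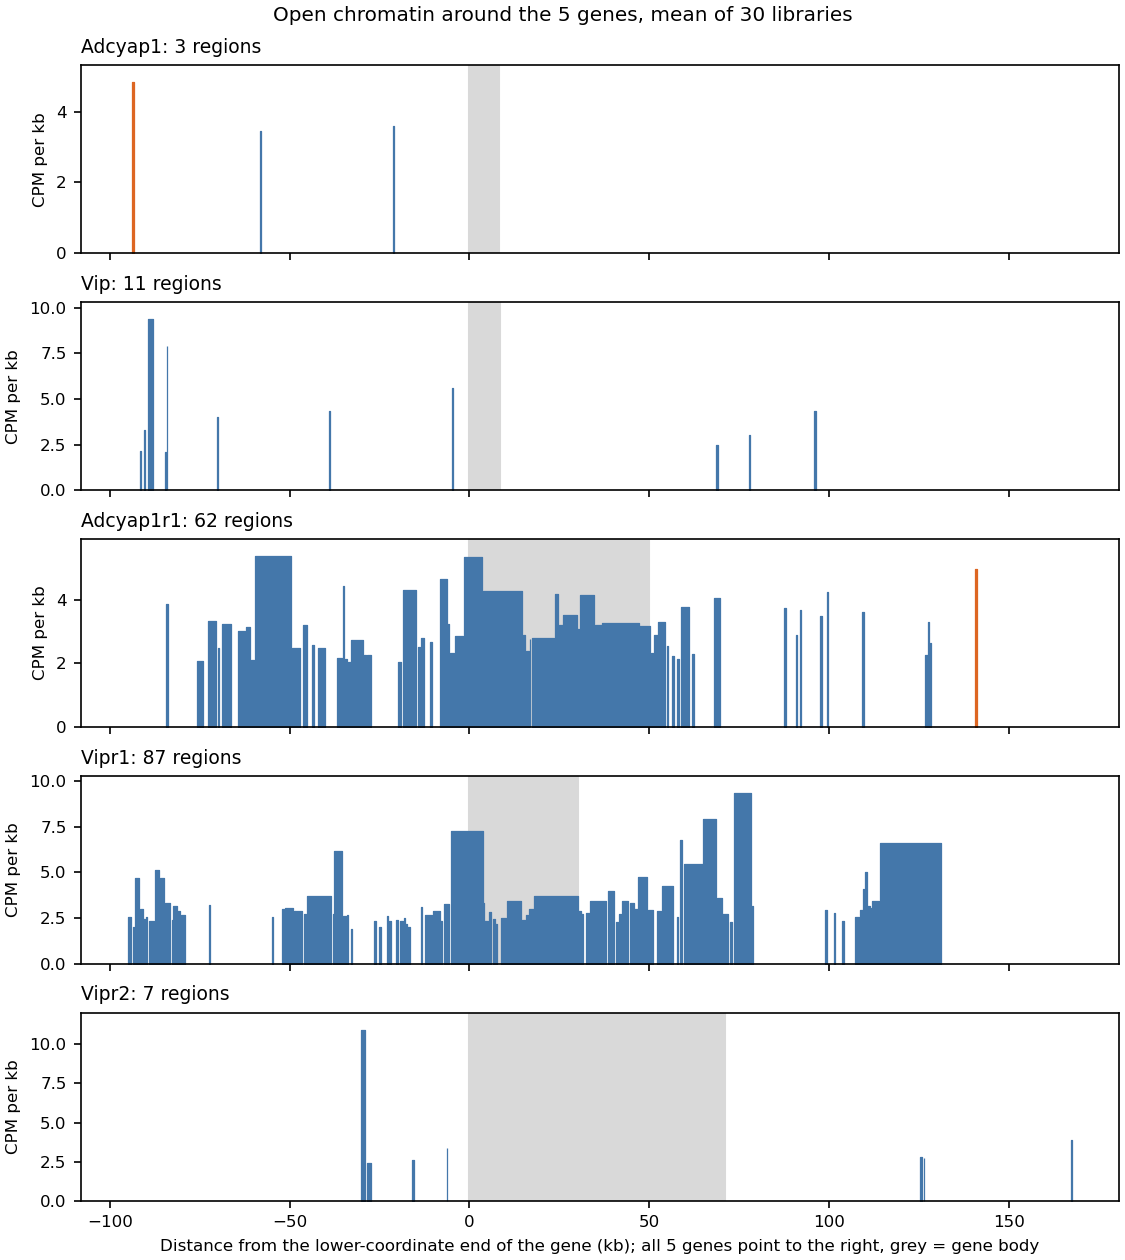
Level of each region (mean of 30 libraries, CPM per kb of region, vertical scale set per gene) against its distance in kb from the lower-coordinate end of the gene, with the gene body in grey and transcription running to the right. Regions cover most of Adcyap1r1 and Vipr1 and none of Adcyap1, Vip or Vipr2, and the 2 orange regions are those lower at 45 min at an adjusted p under 0.05 by edgeR.

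The region over the start of Adcyap1r1 (chr6:55449902-55455142) ran from 26.0 to 30.0 CPM with a median of 27.6 in handled mice at 0 min, and from 27.3 to 31.4 with a median of 28.6 in handled mice at 45 min. In chronically restrained mice it ran from 25.9 to 29.2 (median 27.6) at 0 min and from 25.4 to 29.04 (median 27.8) at 45 min. The ranges of all 4 groups overlapped. The region over the start of Vipr1 (chr9:121637561-121646400), which also covers part of Lyzl4, ran from 60.2 to 80.5 CPM (median 62.2) in handled mice at 0 min, the highest being animal 45. It ran from 61.1 to 70.5 (median 63.3) in handled mice at 45 min, from 57.2 to 67.0 (median 64.0) in chronically restrained mice at 0 min and from 58.3 to 69.5 (median 63.2) at 45 min. Here too the groups overlapped. The mean of handled mice at 0 min was 65.2 ± 6.85 CPM (SD, n = 8) with animal 45 and 63.0 without it. The SD over all libraries was 1.48 CPM around a mean of 28.0 at Adcyap1r1 and 4.49 around 64.4 at Vipr1.

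A region was called where its adjusted p was under 0.05 by edgeR's quasi-likelihood test with Benjamini-Hochberg adjustment over all tested regions. After acute restraint, 2 member regions were called lower and none higher, both of them far. The region 93367 bp before Adcyap1 (chr17:93104509-93104878) overlaps no gene in the annotation. Its level ran from 1.43 to 3.57 CPM (median 2.13) in handled mice at 0 min and from 1.11 to 2.13 (median 1.44) at 45 min. In chronically restrained mice it ran from 1.53 to 3.06 (median 1.96) at 0 min and from 1.05 to 1.98 (median 1.27) at 45 min. Median levels were lower at 45 min in both histories, and the ranges overlapped in both. Averaged over histories, the fitted log2 change was -0.58 ± 0.105 (SE), and -0.53 without animal 45. Values within single batches, here and below, are differences of mean log2 CPM without a fit. They were -0.43, -0.52, -0.59 and -0.75 in batches 1 to 4. Batch 4 held a single library of each 45 min group, and animal 45. The other 2 regions before Adcyap1 had changes of -0.17 ± 0.117 (57952 bp) and -0.15 ± 0.135 (21034 bp).

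The other region called lower lay 90658 bp past the end of Adcyap1r1 (chr6:55592113-55592653), within the annotated noncoding gene Gm34441. The nearest protein coding gene was Neurod6, a transcription factor gene of excitatory neurons, at 85165 bp. Its level ran from 2.34 to 4.73 CPM (median 3.27) in handled mice at 0 min and from 1.85 to 3.38 (median 2.57) at 45 min. In chronically restrained mice it ran from 2.43 to 3.33 (median 2.67) at 0 min and from 1.24 to 2.50 (median 2.14) at 45 min. The 45 min groups had the lower medians, again with overlapping ranges. The averaged log2 change was -0.38 ± 0.088 (SE), and -0.35 without animal 45. The differences of mean log2 CPM were -0.14, -0.37, -0.43 and -0.73 within batches 1 to 4. By that rule 0.116% of the 257143 tested regions were called in either direction, 0.0731% higher and 0.0432% lower, beside 2 of 170 members, and since the acute contrast chose the members nothing is read from this count. Neither region was called without batch 2, without batch 3, in females alone or in males alone, and the Adcyap1r1 region was not called without batch 4 either, while the direction stayed lower in each of these.

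**Figure D3:**
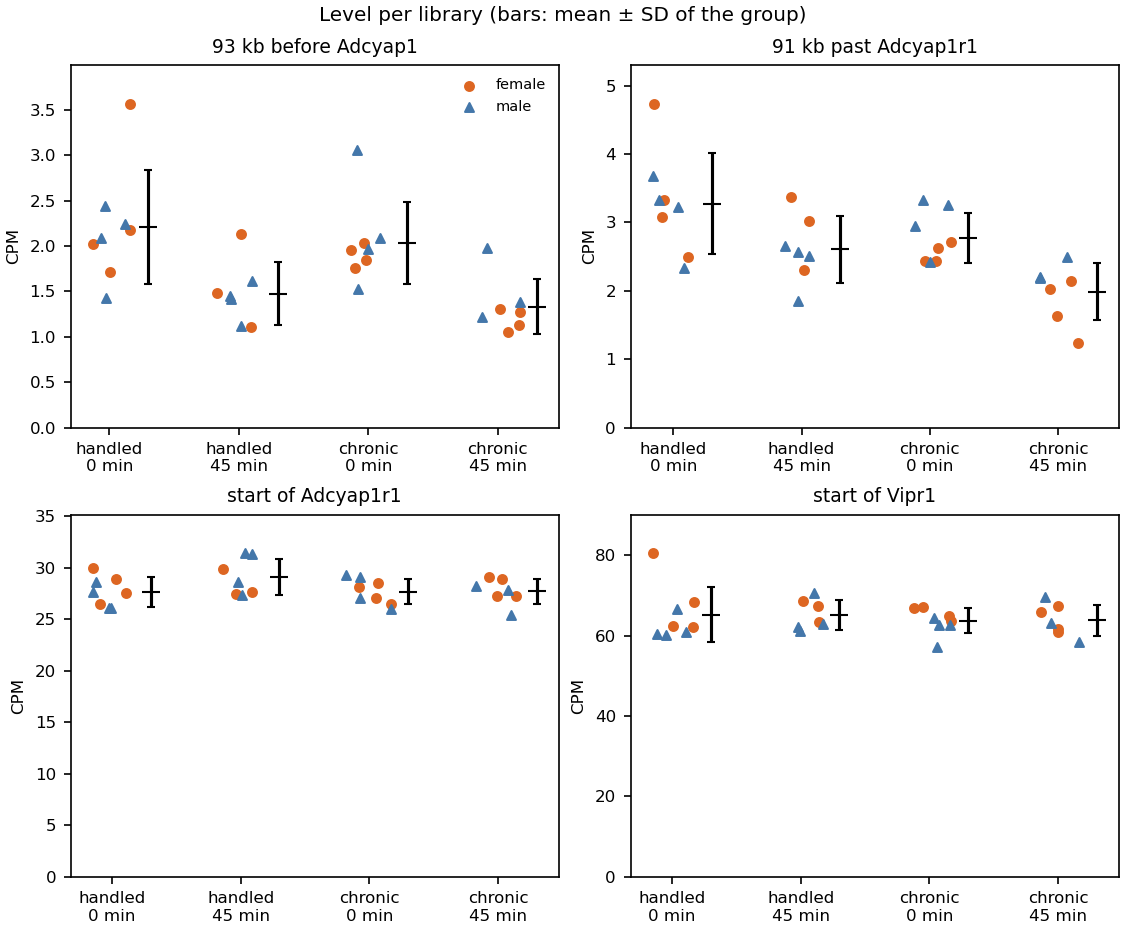
Level in CPM of 4 regions in each library by group, with females as orange circles, males as blue triangles, and black bars for the group mean ± SD; each vertical axis starts at 0. The far regions before Adcyap1 and past Adcyap1r1 have lower means at 45 min in both histories, with medians of 2.13 and 1.44 CPM in handled mice for the former, while the start regions of Adcyap1r1 and Vipr1 overlap between all groups.

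None of the 47 near regions was called in the acute contrast by edgeR or by DESeq2, and 4 had an unadjusted p under 0.05, or 8.51% against 7.17% of all. Their changes ran from -0.22 to 0.18 with a median of 0.03, beside a median of -0.0025 over all tested regions. Over the body of Adcyap1r1, 12 of 14 changes of neighbouring regions were above 0, from -0.04 to 0.15, beside 48.98% of all tested regions, and the start region changed by 0.04 ± 0.038. Over the body of Vipr1, 7 of 12 were above 0, and the start region changed by 0.003 ± 0.037. The near region with the smallest acute p was, for Adcyap1r1, inside the gene (chr6:55477639-55481352, 0.12 ± 0.046) and, for Vipr1, 8202 bp past it over Sec22c (-0.12 ± 0.054). Near Vip the change was -0.001 ± 0.105 and near Vipr2 0.05 ± 0.151. Among far regions not called, those with the smallest acute p lay 82472 bp before Vipr1 (-0.53 ± 0.167, at a mean of only 0.397 CPM), 96019 bp past Vipr2 over Wdr60 (-0.30 ± 0.113) and 87932 bp before Vip (-0.11 ± 0.050, and -0.09 without animal 45). The sign of the changes near Vip and Vipr2 and at the Vipr1 start turned under other settings. Taken within handled mice alone, no member was called (0.0109% of all tested regions were, 0.00972% higher and 0.00117% lower) and 14 had an unadjusted p under 0.05, or 8.24% against 5.52% of all. In chronically restrained mice alone again none was called (0.00272% of all) and 5 had such a p, or 2.94% against 4.73% of all. DESeq2 called none in either history. When each library's percentage of counts within the top 1% of regions by coverage was added as a covariate, the region before Adcyap1 was called in each history. The acute fall of that region chose the members, so nothing is read from these calls. Calls over all regions rose with the covariate too, for the averaged effect from 299 to 1766, 28.3% of them higher.

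**Figure D4:**
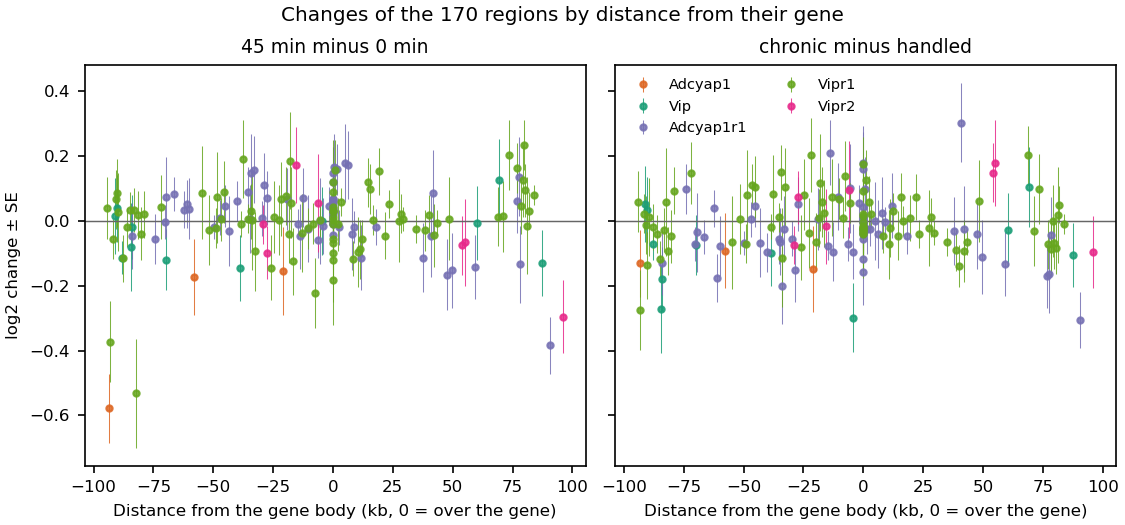
Fitted log2 change ± SE of the 170 regions against their distance in kb from the gene body (0 is over the gene), for 45 min minus 0 min on the left and chronic minus handled on the right, coloured by gene. Changes over and near the genes scatter around 0, and the region with the lowest acute change, -0.58, lies 93 kb before Adcyap1.

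The chronic contrast was not used to choose the members and was tested. Averaged over both times, 0 of 170 members differed between chronically restrained and handled mice by edgeR's quasi-likelihood test (0% of all tested regions), and 0 by DESeq2. An unadjusted p under 0.05 was found for 12 members, or 7.06%, against 5.44% of all tested regions. The median change of the 47 near regions was -0.0045, and that of all tested regions -0.0049. At 0 min 0 members were called (0% of all) and 11 had an unadjusted p under 0.05, or 6.47% against 4.60% of all. At 45 min 0 were called (0% of all) and 8 had such a p, or 4.71% against 3.78% of all. DESeq2 also called 0 at each time. By gene, the averaged chronic changes ran from -0.15 to -0.09 over the 3 Adcyap1 regions, from -0.30 to 0.10 over the 11 Vip regions, from -0.31 to 0.30 over the 62 Adcyap1r1 regions, from -0.27 to 0.20 over the 87 Vipr1 regions and from -0.10 to 0.18 over the 7 Vipr2 regions. The numbers above 0 were 0 of 3, 3 of 11, 19 of 62, 42 of 87 and 4 of 7 in that order, beside 47.96% of all tested regions. Neighbouring regions share the same libraries and are not independent, so these counts of signs were not tested. At the starts of the receptor genes the averaged chronic changes were -0.04 ± 0.038 for Adcyap1r1 and -0.04 ± 0.036 for Vipr1, the latter -0.01 without animal 45.

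The members with the smallest p for the averaged chronic effect were the region 91 kb past Adcyap1r1 and the near region of Vip. At the Adcyap1r1 region the change was -0.31 ± 0.087 (SE, 15 against 15 libraries), with an unadjusted p of 0.000724 and an adjusted p of 0.830 by edgeR. It was below 0 in 4 of 4 batches, from -0.60 to -0.03, and it was -0.25 without animal 45. As a difference of mean log2 CPM without a fit, it was -0.55 within females and -0.05 within males. At 4506 bp before Vip, the level ran from 1.28 to 2.15 CPM (median 1.60) in handled mice at 0 min and from 1.14 to 2.11 (median 1.79) at 45 min. In chronically restrained mice it ran from 0.909 to 2.09 (median 1.43) and from 1.01 to 1.90 (median 1.22). Both chronic groups had lower medians than both handled groups, and the ranges overlapped. The change was -0.30 ± 0.106 with an unadjusted p of 0.00600 and an adjusted p of 0.897 by edgeR, below 0 in 4 of 4 batches, and -0.26 without animal 45. At 45 min alone these regions again had the smallest p, with -0.38 ± 0.130 for the Adcyap1r1 region (unadjusted p 0.00484) and -0.38 ± 0.154 for the Vip region (unadjusted p 0.0153, below 0 in 3 of 4 batches), both with an adjusted p of 1.00 by edgeR. At 0 min the smallest p belonged to 2 regions before Vipr1, 34387 bp away over Lyzl4 (0.32 ± 0.118, unadjusted p 0.00851) and 90192 bp away (-0.36 ± 0.144, unadjusted p 0.0132), both with an adjusted p of 0.997 by edgeR. None of these differences passed the test, and over the 12 other settings tried the adjusted p for the averaged effect ran from 0.195 to 1 for the Adcyap1r1 region and from 0.588 to 1 for the Vip region.

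Gene-end regions were present for 8 of 9 genes listed as markers of VIP interneurons, all but Vip itself. Their summed level had a median of 110 CPM (104 to 138) in the handled 0 min group, 113 (108 to 117) in the handled 45 min group, 114 (110 to 117) in the chronic 0 min group and 112 (109 to 123) in the chronic 45 min group. None of their 13 regions was called in the acute contrast. The sum leaves out Vip, and whether the other listed genes mark only these cells was not tested, so it is not read as a level of VIP interneurons. The summed level of 12 gene-end regions of the 5 excitatory neuron markers had group medians of 907, 926, 920 and 936 CPM in the same order. The part of cell composition in the member values was not tested.

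The interaction asks whether the acute change differs between histories. By edgeR's quasi-likelihood test 0 of 170 members were called (0% of all tested regions) and 5 had an unadjusted p under 0.05, or 2.94% against 3.03% of all, and DESeq2 called 0. The members with the smallest p were both in the Vipr1 window. At the region 42149 bp past Vipr1, over Nktr, handled mice had medians of 1.73 CPM (0 min) and 1.49 CPM (45 min), and chronically restrained mice of 1.37 and 1.76 CPM. The difference of acute changes was 0.45 ± 0.191 (unadjusted p 0.020, adjusted p 1 by edgeR). At the region 90192 bp before Vipr1 the medians were 1.22, 1.07, 0.938 and 1.13 CPM in the same order, and the difference was 0.45 ± 0.208 (unadjusted p 0.0323, adjusted p 1 by edgeR). For the regions before Adcyap1 and past Adcyap1r1, the acute changes were -0.56 ± 0.147 and -0.31 ± 0.121 in handled mice and -0.59 ± 0.149 and -0.45 ± 0.126 in chronically restrained mice. Without animal 45 the acute change in handled mice at the region before Adcyap1 was -0.44, and the differences at the Vipr1 regions were 0.48 and 0.45. The interaction at the Adcyap1r1 region was -0.14 ± 0.174, within its error of 0.

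Between the sexes, 0 of 170 members differed by edgeR's quasi-likelihood test, where 0.000392% of the 255089 tested autosomal regions did, and DESeq2 called 0 members. An unadjusted p under 0.05 was found for 13 members, or 7.65%, against 5.11% of all. The smallest p belonged to a region 60315 bp past Vip (chr10:5707932-5708377), which ran from 0.693 to 1.87 CPM (median 1.26) in 15 females and from 0.688 to 1.28 (median 0.959) in 15 males. Females had the higher median, the ranges overlapped, and at 0 min in chronically restrained mice the sexes had medians of 1.05 and 1.09 CPM. The fitted difference, female minus male, was 0.39 ± 0.112 (unadjusted p 0.000879, adjusted p 0.968 by edgeR), above 0 in 4 of 4 batches. The region inside Adcyap1r1 at chr6:55467136-55468123 had medians of 2.14 CPM in females and 2.58 in males, with overlapping ranges and a difference of -0.25 ± 0.080 (unadjusted p 0.00300, adjusted p 0.968 by edgeR). Without animal 45 the sex differences were 0.37 at the Vip region and -0.23 at the Adcyap1r1 region. Of the 13 members, 6 were near a member gene, or 12.8% of the 47 near regions, against 5.69% of the far ones. Of these 6, 4 were near Adcyap1r1 and 2 near Vipr1. Neighbouring regions share the same libraries and are not independent, so nothing is read from this count.

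**Figure D5:**
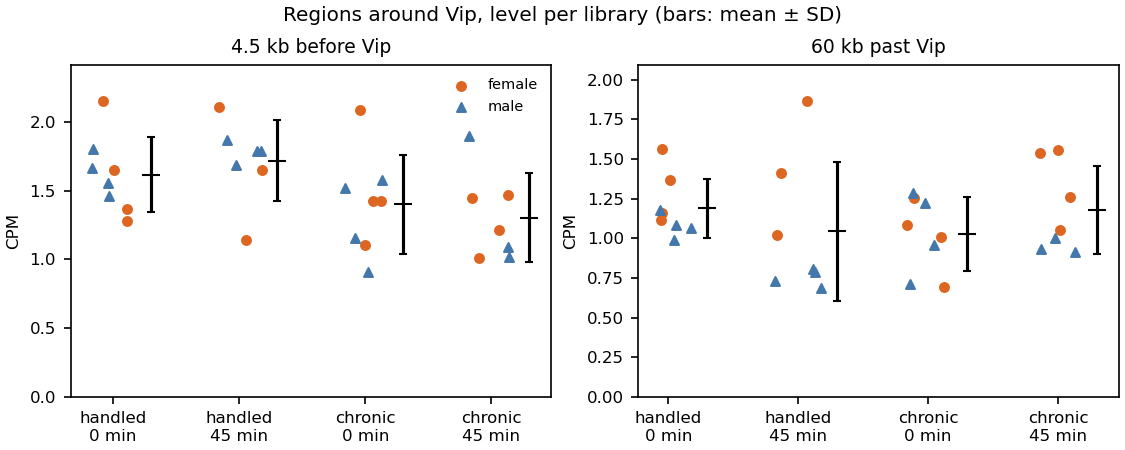
Level in CPM of the regions 4.5 kb before and 60 kb past Vip in each library by group, with females as orange circles, males as blue triangles and black bars for the group mean ± SD; vertical axes start at 0. In the near region the chronic groups have lower medians (1.43 and 1.22 CPM) than the handled groups (1.60 and 1.79 CPM) with overlapping ranges, and in the far region females tend to lie above males except in chronically restrained mice at 0 min.

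The acute and chronic effects were also compared between sexes. For the acute effect 0 members were called by edgeR (0.000389% of all tested regions) and 0 by DESeq2, and 4 had an unadjusted p under 0.05, or 2.35% against 3.72% of all. The smallest belonged to a region 46631 bp before Vipr1, over Lyzl4, with a difference of 0.42 ± 0.124 between females and males (unadjusted p 0.00103, adjusted p 1.00 by edgeR). At the region 60315 bp past Vip the difference was 0.59 ± 0.218 (unadjusted p 0.00862, adjusted p 1.00 by edgeR), and it was above 0 in 2 of the 3 batches that could give it (0.93, 0.49 and -0.14). Without animal 45 these differences were 0.46 and 0.63. For the chronic effect 0 members were called by edgeR (0% of all) and 0 by DESeq2, and 14 members, or 8.24%, had an unadjusted p under 0.05, against 9.27% of all tested regions. Both smallest p belonged to the Adcyap1r1 window. At the region 19071 bp before the gene, females had medians of 1.53 and 1.66 CPM when handled and 1.81 and 2.12 when chronically restrained (0 and 45 min), while males had 1.79 and 1.91 when handled and 1.64 and 1.32 when chronically restrained. Chronic medians were thus above handled ones in females and below them in males. The difference of chronic effects was 0.62 ± 0.180 (unadjusted p 0.000929, adjusted p 0.352 by edgeR), above 0 in all 3 batches that could give it, and 0.59 without animal 45. At the region 91 kb past the gene, female medians were 3.20 and 3.02 CPM when handled and 2.53 and 1.83 when chronically restrained, and male medians 3.28 and 2.54 when handled and 3.10 and 2.20 when chronically restrained. The difference was -0.54 ± 0.167 (unadjusted p 0.00167, adjusted p 0.352 by edgeR) and -0.42 without animal 45.

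Other genes of the pathway were described by the 1525 regions within 10 kb of 41 genes that encode related peptides and receptors, receptor partners, G proteins, adenylyl cyclases, Epac, phosphodiesterases, CREB factors, peptide-processing enzymes and Adnp, a gene induced by VIP. The list includes Ghrhr, with 9 regions, which lies in the Adcyap1r1 window, so the list and the members share regions. In the averaged acute contrast 2 regions were called higher, or 0.131%, and 0 lower, beside 0.116% of all tested regions. They belonged to Adcy5, an adenylyl cyclase (0.30 ± 0.057, adjusted p 0.00435 by edgeR, chr16:35182504-35184269), and to Rapgef3, which encodes Epac1 (0.30 ± 0.068, adjusted p 0.0370 by edgeR, chr15:97744816-97745824). The median change of the list was -0.0005 and that of all tested regions -0.0025. None was called for the averaged chronic effect, for which 77 had an unadjusted p under 0.05 (5.05% against 5.44% of all), or between sexes, for which 68 did (4.46% against 5.11% of all). Of the peptide genes, Gcg had no region.

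Over the 30 libraries, the start region of Adcyap1r1 was most like the gene-start regions of Ociad2 (Pearson r of log2 CPM 0.66), Mag (0.64) and Col6a2 (0.64) on other chromosomes, out of 11963 compared. That of Vipr1 was most like those of Nab2 (0.87), Trabd (0.86) and Pdk2 (0.86), but 40.7% of the 11876 regions compared had an r above 0.5 with it, against 1.00% for Adcyap1r1. All of these values share the libraries and their depth.

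The limits of the rule left some regions just outside. Beyond 100 kb the nearest lay 156402 bp from Adcyap1, with an acute change of -0.25 ± 0.115, 110307 bp from Vip (-0.36 ± 0.086), 106539 bp from Adcyap1r1 (-0.36 ± 0.131), 101835 bp from Vipr1 (0.09 ± 0.091) and 113945 bp from Vipr2 (0.02 ± 0.074). Just inside lay the regions described at 93367 bp from Adcyap1 and 90658 bp from Adcyap1r1, and those at 91241 bp from Vip (0.02 ± 0.118), 94195 bp from Vipr1 (0.04 ± 0.095) and 96019 bp from Vipr2 (-0.30 ± 0.113). At the limit of 10 kb, regions just inside lay 4506, 8905, 8283 and 6097 bp from Vip, Adcyap1r1, Vipr1 and Vipr2. Those just outside lay 21034, 38719, 10471, 10330 and 15390 bp from Adcyap1, Vip, Adcyap1r1, Vipr1 and Vipr2.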

How the data were processed

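ATAC-seq, in which a transposase cuts open DNA, was run on nuclei of the ventral hippocampus of 30 mice. The deposited table gives raw whole-number counts per region for regions common to all libraries. Per the submitters' processing notes, Trimmomatic, Bowtie2, Picard, Genrich 0.6.1 and build GRCm38 were used. How regions were merged, and whether reads, fragments or insertions were counted, is not given in the sources used here. 2 columns matched no sample and were not used.

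edgeR 4.0.16 (R 4.3.3) filtered the counts (filterByExpr left 257143 of 257149 regions, all 170 members among them), scaled them by TMM and fitted a robust quasi-likelihood model of the 4 groups, sex and batch to all 30 libraries. Differences between sexes in the acute and chronic effects came from 8 cells of group and sex with batch. P-values were Benjamini-Hochberg adjusted over all tested regions, or over autosomal regions for sex, and called under 0.05. Levels are TMM-scaled CPM, and libraries held 26104576 to 55294838 counts, which limits the precision of regions with few counts. The fit was checked on simulated counts with known log2 changes, for the averaged acute effect only. Of 50 regions each, 23 were called at a change of -0.5 and 26 at 0.5, and 49 at -1 and 50 at 1. A change near 0.5 can therefore go uncalled. Distances are from RefSeq gene bodies on GRCm38.p6, and gene-start windows and strand come from RefSeq, with all 5 members matched. The gene table has no exons, so regions inside a gene were not split into exonic and intronic. Libraries were distinct: over 98 pairs within groups, chi-square per region was 1.87 to 8.84.

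The members and lists were chosen with earlier results of these data known. Regions named were the strongest gene-start region of each gene, the near and far region with the smallest acute p, the 2 members with the smallest p in each other comparison, every called member, and those beside the limits of distance. Alternatives were DESeq2 1.42.0, scaling by total count, no filter, no batch term, the share of the most covered 1% of regions as a covariate, and leaving out animal 45, each batch or each sex. The result of 1 listed marker gene is not reported here.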

Additional observations from a re-analysis of the deposited data

Results flagged for a closer look

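Among 18 named regions in 4 groups, or 72 sets of libraries, 5 held a library far from the others, where chance gives about 1 in 20. At the region 93 kb before Adcyap1, a chronically restrained male at 0 min (animal 3) had 3.06 CPM while the others in its group ran from 1.53 to 2.09, and a chronically restrained male at 45 min (animal 4) had 1.98 CPM while the others ran from 1.05 to 1.38. Both were in batch 1, without which the acute change of this region was -0.64. At the region 88 kb before Vip, over Syne1, a handled female at 45 min (animal 1) had 16.0 CPM and the others 12.5 to 13.8. At the start of Vipr1, animal 45 had 80.5 CPM and the other handled mice at 0 min 60.2 to 68.5, and a chronically restrained male at 0 min (animal 24) had 57.2 CPM and the others 62.7 to 67.0.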

How the results depend on the processing

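For the averaged acute effect 2 member regions were called under DESeq2, total count scaling, no filter, no batch term, the covariate, without animal 45 and without batch 1. The count was 0 without batch 2, 0 without batch 3, 1 without batch 4 (the Adcyap1 region), 0 in females only and 0 in males only. These last settings hold fewer libraries. Over all 12 settings the acute change ran from -0.64 to -0.51 at the region before Adcyap1 and from -0.48 to -0.30 at that past Adcyap1r1. With the covariate, 1 member was called in handled mice and 1 in chronically restrained mice (the Adcyap1 region, adjusted p 0.00607 and 0.0356 by edgeR). That region chose the members, and the share of all regions called in each history with the covariate is not given, so nothing is read from these calls. The cause of these shifts with setting was not tested. All other comparisons gave 0 called members under every setting run. Over all regions the averaged acute effect had 299 calls, 62.9% of them higher, and 525 (53.3% higher) by total count scaling, 1766 (28.3% higher) with the covariate, 681 without animal 45, 20 in females only and 105 in males only. Leaving out batch 2 gave 40 and leaving out batch 3 gave 140.

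Among single regions, the acute change 4506 bp before Vip turned to 0.023 without animal 45, 0.025 without batch 2, 0.072 without batch 4 and 0.11 in males only. That of the Vipr1 start turned to -0.018 with the covariate, -0.021 without batch 2, -0.011 without batch 3 and -0.025 in females only. That 6097 bp before Vipr2 turned to -0.037 without batch 3, -0.015 without batch 4 and -0.16 in males only. The chronic change at 45 min of the region past Adcyap1r1 was 0.0018 in males only. The cause was not tested. All mean levels moved by less than the SD between libraries under CPM on total counts and without animal 45. No paired analysis was possible because each animal number belongs to a single library, so groups share no replicate numbers.

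A member with a mean of 15.5 counts per library, the lowest, gives wider errors than the 4451 of the highest.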
